A study of Mus musculus with 20 samples.

Results

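The potassium channel genes are those whose symbol starts with Kcn in the annotation of the array, apart from Kcnj8, Kcnj13, Kcne2 and Kcnq1ot1, and only probe sets annotated with a single symbol were taken. They number 158 probe sets of 80 genes, out of 45037 probe sets tested and 18193 genes with a single-symbol probe set. RNA from whole brains was hybridised to Affymetrix mouse genome arrays, 10 from WT and 10 from HDAC4 KO pups, untreated and 3 days old, with 5 arrays per labelled sex in each genotype. WT pups were littermates of the KO pups, from a colony on the B6CBAF1/OlaHsd background in which heterozygous males were backcrossed and homozygous KO pups came from intercrosses, so the knock-out was a germline one and not limited to one cell type. The values are log2 signals, so a difference of 1 is a doubling, and a whole brain does not tell fewer cells of a type from less RNA per cell.

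Potassium channels let K+ leave the cell and so set the resting potential, end the action potential and limit repetitive firing. Voltage-gated Kv channels are built from pore subunits that join within a subfamily, and their gating and transport are tuned by cytosolic partners such as the KChIP and Kv beta proteins. Inward rectifiers and K2P channels (tandem-pore, drawn as two-pore in the plot of subfamilies) hold the membrane near rest, whereas BK, SK and sodium-activated channels open on intracellular calcium or sodium. In the rodent brain most Kv channels are still increasing in the first weeks after birth, as neurons acquire mature firing.

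Of the 158 probe sets, 5 were higher in HDAC4 KO than in WT brains at an adjusted p under 0.05 and 0 were lower, by limma with Benjamini-Hochberg adjustment over all 45037 probe sets. These were probe sets of Kcnip2, Kcnc2, Kcnq3, Kcnt1 and Kcnd1, and their rises lay between 1.13-fold and 1.26-fold. The share of members called higher was 3.16%, beside 1.05% of all probe sets, and the share called lower over all probe sets was 1.01%. At an unadjusted p under 0.05, 36 members (22.8%) were higher and 5 (3.16%) lower, beside 9.93% and 8.1% of all probe sets. When each gene was read at its brightest probe set, the one with the highest mean over the 20 arrays, 3 of 80 genes rose (Kcnip2, Kcnc2 and Kcnq3, 3.75%) and 0 fell, beside 1.45% higher and 0.517% lower over all 18193 genes. Unadjusted, 23 of these 80 (28.75%) were higher and 3 (3.75%) lower, beside 12.8% and 6.19% of all genes. Among the 23 was Kcnc1, whose brightest probe set was not its brightest in WT brains alone.

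The promoters of 2 of the 5 called genes are given, as only these 2 were listed in the RefSeq promoter table used here (build GRCm38.p6). They were also the genes with the smallest adjusted p of the family. Each is the 250 bases before the annotated start, 5′ to 3′ on the strand of the gene, with GC boxes (GGGCGG, the site of Sp1-type factors) in capitals.
Kcnip2, chr19:45816064-45816313, minus strand: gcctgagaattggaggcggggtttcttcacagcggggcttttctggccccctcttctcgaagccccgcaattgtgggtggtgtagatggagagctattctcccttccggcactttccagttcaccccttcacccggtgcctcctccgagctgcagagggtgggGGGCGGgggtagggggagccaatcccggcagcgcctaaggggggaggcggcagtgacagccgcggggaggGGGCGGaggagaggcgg
Kcnc2, chr10:112269767-112270016, plus strand, the most upstream of 4 annotated starts: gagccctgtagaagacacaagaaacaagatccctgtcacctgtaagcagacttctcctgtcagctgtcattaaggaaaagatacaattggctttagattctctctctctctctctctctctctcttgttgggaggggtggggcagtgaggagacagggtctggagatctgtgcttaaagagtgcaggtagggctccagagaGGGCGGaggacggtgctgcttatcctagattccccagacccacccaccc
The Kcnip2 window had a GC content of 66.8% with 15 CpG dinucleotides and 2 GC boxes on the strand shown, and the Kcnc2 window a GC content of 52.4% with 2 CpG dinucleotides and 1 GC box. GC boxes, searched on both strands, were in 46.4% of the 84 promoters of 60 member genes and in 32.7% of all 32851 promoters of the same length. Neither window held the MEF2 site, which 2.92% of all promoters and 2 of the 84 member promoters (Kcnj9 and Kcnj16) did, or the cyclic AMP response element TGACGTCA, which 1.55% of all promoters and 0 of the 84 did. The E-box CACGTG was in 5.95% of member promoters and 6.02% of all.

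The Hdac4 transcript was lower in HDAC4 KO brains at all 3 of its probe sets, by 1.39 (SE 0.12, adjusted p = 6.28e-07), 1.19 (adjusted p = 9.48e-07) and 0.46 (adjusted p = 0.0198) on the log2 scale, and at the brightest one the nearest arrays of the genotypes were WT replicate 8 at 7.54 and HDAC4 KO replicate 10 at 7.43. On 3 arrays (WT replicates 5 and 9 and HDAC4 KO replicate 10) the X- and Y-linked transcripts did not match the labelled sex. WT replicates 5 and 9 showed the pattern of the other sex, whereas HDAC4 KO replicate 10 had high signals of both Xist (12.27) and the Y-linked Kdm5d (6.88), and also the highest Hdac4 signal of its genotype. Median log2 signals of the 20 arrays lay between 6.26 and 6.32. Over all arrays 7 neuronal markers averaged 12.68 to 12.77 in WT and 12.68 to 12.80 in HDAC4 KO brains, with 0 called higher and 1 lower (Nefl, a neurofilament subunit, -0.28, adjusted p = 0.0427). Of the marker lists for glia, vessels, meninges, blood and muscle, 0 genes were called in either direction by limma (3 higher and 2 lower at an unadjusted p under 0.05), and of 5 choroid plexus markers Ttr was lower (-0.14, adjusted p = 0.0420), with a list mean of 8.25 to 8.70 in WT and 8.15 to 8.46 in HDAC4 KO brains. The part of these shifts in the channel values was not tested.

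**Figure D1:**
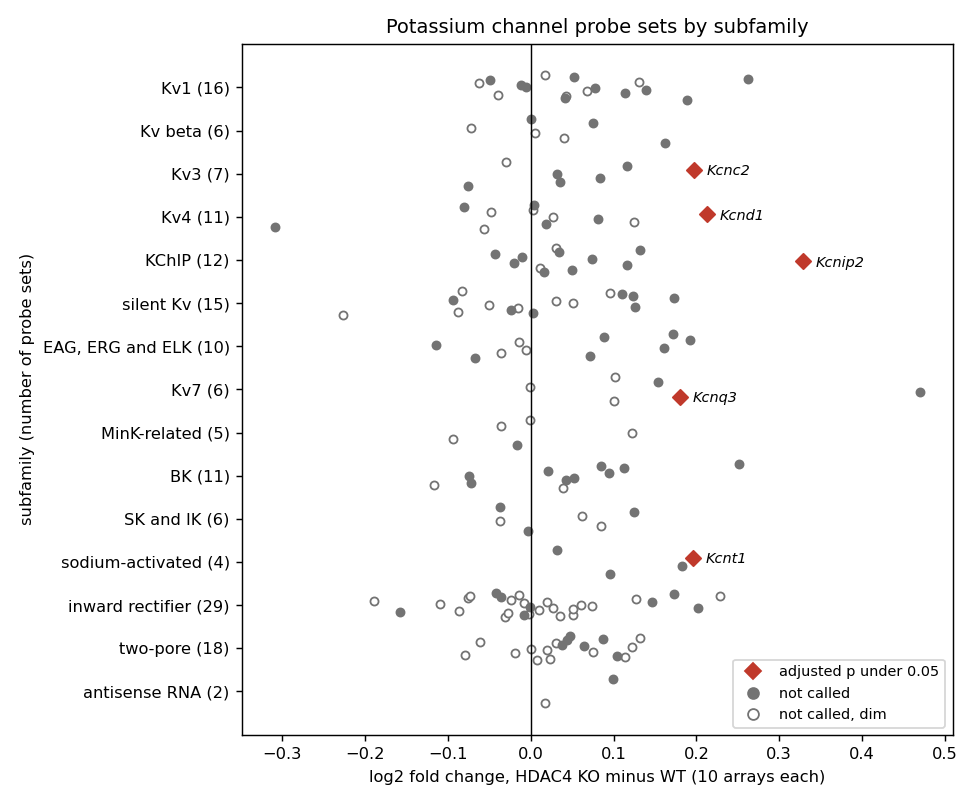
Log2 fold change (HDAC4 KO minus WT, 10 arrays each) of every member probe set, 1 row per subfamily with its number of probe sets. Diamonds mark the 5 called probe sets, open circles dim probe sets (above the median of fewer than 10 arrays) and filled circles the rest; the called Kcnd1 probe set is dim although its diamond is filled. All 5 diamonds lie to the right of 0, between 0.18 and 0.33.

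More members had a positive than a negative log2 fold change, by small amounts. The log2 fold change was above 0 in 101 of 158 probe sets (63.9%) beside 51.9% of all probe sets, with a median of 0.03 against 0.00. At the brightest probe set it was above 0 in 52 of 80 genes (65%) beside 57.2% of all genes, with a median of 0.04 against 0.01. Among the 83 member probe sets that exceeded the median of their array on 10 or more arrays 60 were positive and 4 were called (median 0.06), where 1.78% of all such single-symbol probe sets were called higher and 1.42% lower. Over all 22603 probe sets this bright, of any annotation, the median was 0.01, and their share above 0 was not computed. Among the 75 dim members 41 were positive and 1 was called (median 0.01). The members ranged from -0.31 to 0.47, only 3 differed by more than 1.2-fold in either direction, and in 0 members did the 10 HDAC4 KO arrays lie wholly outside the WT arrays, beside 0.0444% of all probe sets wholly above and 0.0333% wholly below.

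Kcnip2 showed the firmest difference. It encodes KChIP2, a calcium-binding subunit that brings Kv4 channels to the membrane and slows their inactivation, and so enlarges the transient A-type current. Its brightest probe set measured 8.56 at the lowest, 8.70 at the median and 8.94 at the highest in WT brains. In HDAC4 KO brains it measured 8.71, 9.02 and 9.24. The lowest HDAC4 KO array lay near the WT median, 9 of 10 HDAC4 KO arrays were above the highest WT array and all 10 were above the WT mean. Means were 8.71 ± 0.12 (SD, n = 10) and 9.04 ± 0.16 (SD, n = 10), a rise of 0.33 (SE 0.06, 1.26-fold, adjusted p = 0.0155 by limma). A dimmer probe set gave 0.12 (SE 0.06, adjusted p = 0.302) and one below the array median gave 0.01 (adjusted p = 0.951).

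Kcnc2 encodes Kv3.2, a fast channel that lets fast-spiking interneurons and thalamic neurons fire at high rates. It has 1 probe set on the array, which measured 8.86, 8.99 and 9.14 (lowest, median and highest) in WT brains and 9.01, 9.19 and 9.28 in HDAC4 KO brains. HDAC4 KO arrays exceeded the highest WT array in 9 cases, and replicate 6 was the one that did not. Means of 8.99 ± 0.08 and 9.18 ± 0.08 (SD, n = 10 each) differed by 0.20 (SE 0.04, 1.15-fold, adjusted p = 0.0162).

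Kcnq3 encodes Kv7.3, a subunit of the channels that carry the M-current, a slow brake on firing that muscarinic receptors release. Its brightest probe set measured 10.06, 10.15 and 10.30 in WT brains and 10.21, 10.34 and 10.51 in HDAC4 KO brains. Here 6 HDAC4 KO arrays lay above every WT array and all 10 above the WT mean. The means, 10.16 ± 0.08 and 10.34 ± 0.12 (SD, n = 10 each), differed by 0.18 (SE 0.05, 1.13-fold, adjusted p = 0.0467), and its dim second probe set gave 0.10 (adjusted p = 0.574).

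Kcnt1, which encodes the sodium-activated channel Slack, was called at 1 of its 3 probe sets, and not at the brightest. At the called one the lowest, median and highest values were 7.19, 7.24 and 7.36 in WT brains and 7.23, 7.41 and 7.70 in HDAC4 KO brains. The WT arrays were tightly grouped and the HDAC4 KO arrays were not (SD 0.05 and 0.14), with 8 of the latter above the WT range. The rise was 0.20 (SE 0.05, 1.15-fold, adjusted p = 0.0331). The other 2 probe sets gave 0.18 (adjusted p = 0.101) and, at the brightest, 0.10 (adjusted p = 0.184).

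Kcnd1 encodes Kv4.1, a pore subunit of A-type channels. The called probe set was below the array median on all arrays. It measured 5.43, 5.72 and 5.80 in WT brains and 5.78, 5.88 and 6.10 in HDAC4 KO brains, a rise of 0.21 (SE 0.05, 1.16-fold, adjusted p = 0.0401). The brightest probe set of the gene gave 0.00 (adjusted p = 0.982) and the remaining one -0.06 (adjusted p = 0.626), so the 3 probe sets of Kcnd1 did not move together.

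**Figure D2:**
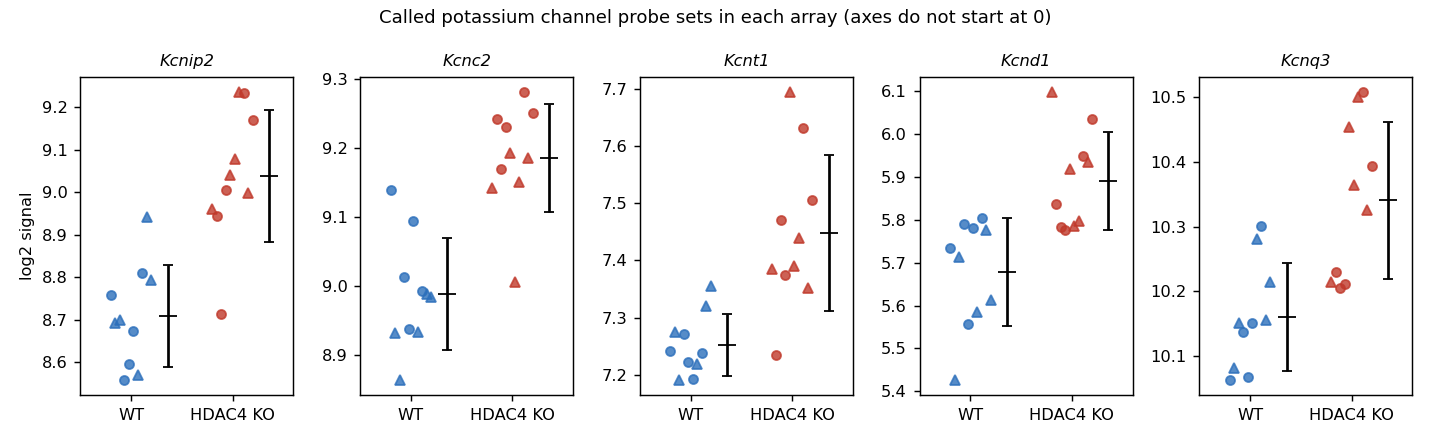
Log2 signal of the 5 called probe sets in each WT and HDAC4 KO array (circles, labelled male; triangles, labelled female; bars, mean ± SD over 10 arrays; axes do not start at 0). In each panel the HDAC4 KO mean is higher and the groups overlap; for Kcnip2 and Kcnc2 9 HDAC4 KO arrays exceed the WT range.

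Of the 5 calls, that of Kcnip2 was kept in all 33 alternative settings (adjusted p from 0.00276 to 0.0493) and that of Kcnc2 in 32 of 33 (0.00698 to 0.0823). Kcnt1 passed in 17 of 32, Kcnd1 in 14 of 31 and Kcnq3 in 13 of 33. Each of these 3 calls was lost when any 1 of several arrays was left out. That of Kcnq3 was lost without any one of WT replicates 1, 2, 3, 4, 5, 6, 7 and 9 and HDAC4 KO replicates 5, 6, 7, 8, 9 and 10. That of Kcnd1 was lost without WT replicate 1, 2, 3, 4, 5, 7 or 10 or HDAC4 KO replicate 1, 5, 8, 9 or 10, and that of Kcnt1 without WT replicate 2, 3, 4, 5, 6 or 7 or HDAC4 KO replicate 5, 7, 8 or 10. With 1 array left out, higher calls over all probe sets ranged from 184 to 991, beside 474 with all arrays. Without WT replicate 8 and HDAC4 KO replicate 10, or without the 3 arrays that went against their labelled sex, Kcnip2 and Kcnc2 were called and the other 3 were not. RNA integrity was read from the actin and Gapdh control probe sets as their 3′ signal less their 5′ signal, which was 0.19 ± 0.03 in WT and 0.22 ± 0.03 in HDAC4 KO arrays (SD, n = 10 each, permutation test p = 0.0836, two-sided). With that measure as a covariate only Kcnip2 of the members remained called, and the calls over all probe sets went from 474 higher and 453 lower to 23 and 20. The sizes moved less than the calls: over all alternatives the log2 fold change was 0.31 to 0.36 for Kcnip2, 0.18 to 0.22 for Kcnc2, 0.16 to 0.20 for Kcnq3, 0.17 to 0.22 for Kcnt1 and 0.18 to 0.23 for Kcnd1.

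**Figure D3:**
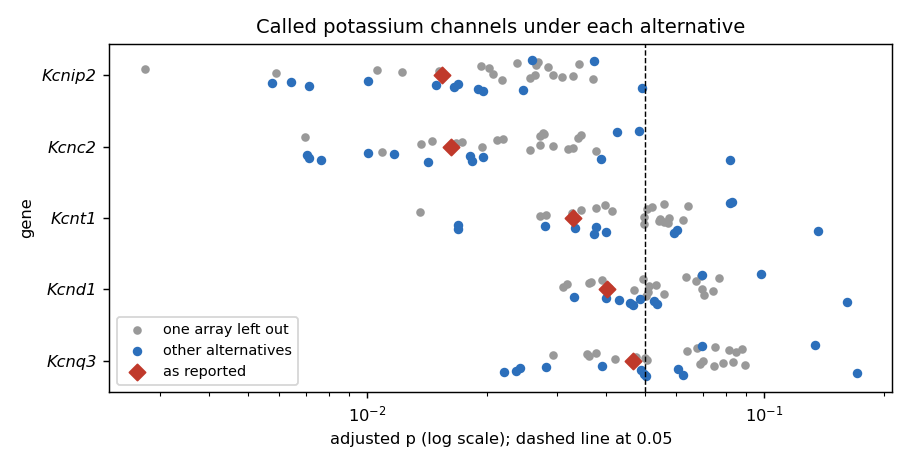
Adjusted p of the 5 called probe sets as reported (diamonds), with 1 array left out (grey) and under the other alternatives (blue), on a log axis with a dashed line at 0.05. All points of Kcnip2 lie left of the line and all but 1 of Kcnc2, while those of Kcnt1, Kcnd1 and Kcnq3 fall on both sides.

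The called probe sets were also read within each labelled sex. The labels of WT replicates 5 and 9 and HDAC4 KO replicate 10 were kept, although X- and Y-linked transcripts did not match them, which limits these comparisons. For Kcnip2 the log2 fold change was 0.32 between the arrays labelled female and 0.33 between those labelled male, for Kcnc2 0.19 and 0.20, for Kcnt1 0.18 and 0.21, for Kcnq3 0.19 and 0.17, and for Kcnd1 0.28 and 0.14. The genotype by labelled sex interaction was called for 0 members and 0 of all probe sets (0%), with an adjusted p of at least 0.917. At an unadjusted p under 0.05 it was passed by 9 members, beside 5.35% of all probe sets. With 5 arrays per group, 0 members were called within the females or within the males (0.04% and 0.0377% of all probe sets were).

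The A-type current is carried by Kv4 pore subunits with KChIP partners. Of 11 Kv4 probe sets 1 was called and 7 were positive, and of 12 KChIP probe sets 1 was called and 9 were positive. Kcnd2 (Kv4.2, the main dendritic A-type subunit) varied little between brains at its brightest probe set, with 11.24, 11.28 and 11.36 in WT brains and 11.25, 11.31 and 11.34 in HDAC4 KO brains. The groups coincided there, with a difference of 0.02 (SE 0.02, adjusted p = 0.752). A second Kcnd2 probe set, singled out after its values were seen, measured 10.75, 11.12 and 11.21 in WT brains and 10.08, 10.91 and 11.08 in HDAC4 KO brains, a difference of -0.31 (SE 0.11, adjusted p = 0.133), the most negative of all members. Another Kcnd2 probe set, above the array median on all 20 arrays, gave -0.08 (SE 0.06, adjusted p = 0.536), and a dim one 0.00 (adjusted p = 0.985). For Kcnd3 (Kv4.3) the values were 10.45, 10.49 and 10.55 in WT and 10.52, 10.57 and 10.68 in HDAC4 KO brains. All 10 HDAC4 KO arrays were above the WT mean, and the difference of 0.08 (SE 0.03) did not pass the test over all probe sets (adjusted p = 0.104). Kcnip1 (KChIP1) gave -0.01 (adjusted p = 0.901) and Kcnip4 (KChIP4) 0.07 (adjusted p = 0.423), while a dimmer Kcnip4 probe set (also picked out after the fact) gave 0.13 (adjusted p = 0.0984).

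The Kv1 channels, which cluster along axons and at juxtaparanodes, had 0 called of 16 probe sets (4 higher and 0 lower unadjusted), 11 of them positive. All 4 probe sets of Kcna1 (Kv1.1) were positive. The brightest measured 7.91, 8.31 and 8.39 in WT and 8.11, 8.42 and 8.64 in HDAC4 KO brains (a difference of 0.19 with SE 0.07 and adjusted p = 0.136), and the other 3 gave 0.26 (adjusted p = 0.0807), 0.14 (adjusted p = 0.242) and 0.13 (adjusted p = 0.344). Kcna2 (Kv1.2), the usual partner of Kv1.1 in axons, differed by -0.01 (adjusted p = 0.937). Of the Kv beta subunits, cytosolic proteins bound to Kv1 channels, Kcnab2 gave 0.16 (SE 0.06, adjusted p = 0.174) and Kcnab1 0.08 (adjusted p = 0.496), with 5 of 6 probe sets positive and 0 called.

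Kcnc1 (Kv3.1), the closest relative of Kcnc2 in fast-spiking cells, measured 8.39, 8.52 and 8.63 in WT and 8.50, 8.62 and 8.75 in HDAC4 KO brains at its brightest probe set. Of 10 HDAC4 KO arrays 9 were above the WT mean, for a difference of 0.12 (SE 0.04, adjusted p = 0.0998), and its other 3 probe sets gave 0.03, -0.03 and -0.08. The probe set at 0.12 was the brightest only with the HDAC4 KO arrays counted. In WT brains alone the one at 0.03 (adjusted p = 0.756) was brighter, with a mean of 8.54 against 8.51. Silent Kv subunits, which form no channel alone and change other Kv channels when they join them, had 8 positive of 15 probe sets and 0 called. Among these was the member just outside the threshold, a dim probe set of Kcns2 (Kv9.2, singled out for that position). It measured 4.87, 4.99 and 5.21 in WT and 4.57, 4.76 and 4.99 in HDAC4 KO brains, with all 10 of the latter below the WT mean, a difference of -0.23 (SE 0.06, adjusted p = 0.0501). The brightest Kcns2 probe set pointed the other way, at 0.11 (adjusted p = 0.205). The members next to the threshold were thus Kcnq3 inside, at 0.0467, and Kcns2 outside.

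Of the Kv7 probe sets 5 of 6 were positive and 1, that of Kcnq3, was called. Kcnq5 (Kv7.5), another M-current subunit, measured 8.43, 8.60 and 8.84 in WT and 8.58, 8.76 and 8.93 in HDAC4 KO brains, with a difference of 0.15 (SE 0.05, adjusted p = 0.124). The EAG, ERG and ELK channels had 0 called of 10 probe sets and 5 of each sign. At its brightest probe set Kcnh1 (EAG1) gave 0.16 (SE 0.06, adjusted p = 0.182), and at the other -0.07. The MinK-related subunits, small proteins best known from the heart and epithelia, were dim in 4 of 5 probe sets, with 1 of 5 positive. The gene among them with the smallest p, Kcne3, gave 0.12 at a signal near 2.80 (adjusted p = 0.212).

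All 4 sodium-activated probe sets were positive and 1 was called (Kcnt1, above), while Kcnt2 (Slick), a second pore subunit of this kind, differed by 0.03 (adjusted p = 0.855). The BK channel, opened by calcium and depolarisation together, had 0 called of 11 probe sets and 8 positive. Its pore gene Kcnma1 measured 9.45, 9.59 and 9.71 in WT and 9.23, 9.68 and 9.79 in HDAC4 KO brains, a difference of 0.04 (SE 0.06, adjusted p = 0.774). Its neuronal beta subunit gene Kcnmb4 gave 0.09 (SE 0.03, adjusted p = 0.177), and an antisense transcript of that gene, Kcnmb4os2, 0.10 (adjusted p = 0.27). Among the SK and IK channels, which carry afterhyperpolarising currents gated by calcium alone, 3 of 6 probe sets were positive and 0 called, and Kcnn2 (SK2) gave 0.12 (SE 0.05, adjusted p = 0.163).

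Among the inward rectifiers both signs were about as frequent. Of 29 probe sets 13 were positive, 0 were called (5 higher and 2 lower at an unadjusted p under 0.05), and 21 were dim, and at the brightest probe set 3 of 13 genes were positive with a median of -0.03. One of these 3 was Kcnj3 (GIRK1, a G protein-gated channel subunit), which measured 8.17, 8.50 and 8.56 in WT and 8.44, 8.65 and 8.71 in HDAC4 KO brains. There 7 HDAC4 KO arrays were above the WT range, and the difference of 0.17 (SE 0.05) missed the threshold (adjusted p = 0.0657). Its partner Kcnj6 (GIRK2) was dim and gave -0.09 (adjusted p = 0.509). Kcnj10 (Kir4.1), the glial channel that clears extracellular K+, gave -0.01 (SE 0.11, adjusted p = 0.982) with an SD of 0.25 in WT and 0.28 in HDAC4 KO arrays. The difference in direction between the inward rectifiers and other subfamilies was not tested.

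K2P channels carry the background leak current. They were positive in 15 of 18 probe sets, with a median of 0.04 and 0 called (4 higher and 0 lower unadjusted), and 12 of the 18 were dim. Kcnk2 (TREK-1, opened by stretch and lipids) measured 9.85, 9.97 and 10.14 in WT and 9.89, 10.04 and 10.21 in HDAC4 KO brains, a difference of 0.09 (SE 0.04, adjusted p = 0.25). Kcnk1 (TWIK-1) gave 0.04 (SE 0.05, adjusted p = 0.717). Kcnk13 (THIK-1), the leak channel of microglia, was dim and gave 0.11 (SE 0.04, adjusted p = 0.162), and 0.03 (adjusted p = 0.693) at its other, dimmer probe set. A list of 6 microglial markers had a median of 0.11, and 0 of them were called. Whether the microglial share of the tissue took part in the Kcnk13 value was not tested.

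**Figure D4:**
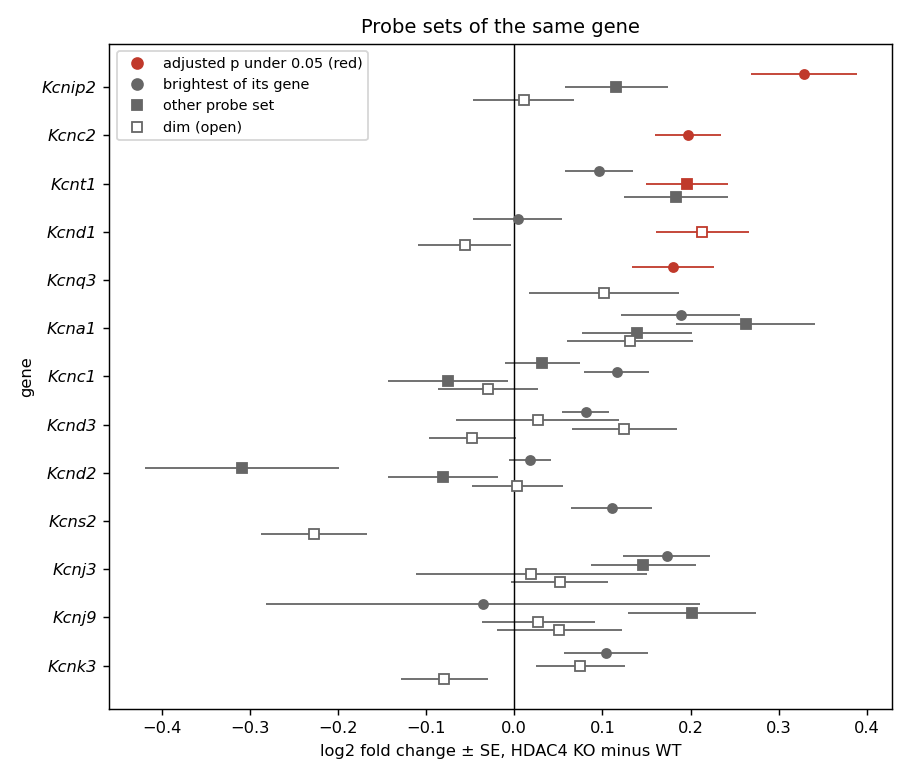
Log2 fold change ± SE (HDAC4 KO minus WT, 10 arrays each) of every probe set of the genes plotted, 1 row per gene. Probe sets of one gene lie on both sides of 0 for Kcnd2 and Kcnd1, and on one side for Kcna1, Kcnt1 and Kcnip2.

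Probe sets of the same gene often disagreed in sign. Of the 80 genes 35 had 1 probe set and 45 had several, and in 22 of these 45 both signs occurred. Of the 5 called genes 4 had several probe sets, and in each of these 1 probe set was called. Probe sets of one gene can lie in different exons or 3′ ends, which the files do not place, so a call refers to the probe set named.

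A few members varied far more between brains than between genotypes. A second Kcnq5 probe set, picked for its spread, measured 4.58, 6.94 and 7.47 in WT and 5.03, 6.88 and 7.43 in HDAC4 KO brains. Low values were seen in WT replicates 6, 8 and 10 and HDAC4 KO replicate 3, WT replicate 9 was intermediate at 5.98, and the other arrays were higher. The largest log2 fold change of the family, 0.47, came from this probe set, with an SE of 0.41 and an adjusted p of 0.592. The brightest probe set of Kcnj9 (GIRK3) measured 6.40, 7.23 and 7.90 in WT and 6.30, 6.78 and 8.09 in HDAC4 KO brains, a difference of -0.04 (SE 0.25, adjusted p = 0.963), and both genotypes covered nearly the same range. Another Kcnj9 probe set, above the array median on all 20 arrays, varied less and gave 0.20 (SE 0.07, adjusted p = 0.139), with 9 of 10 HDAC4 KO arrays above the WT mean, and was called when HDAC4 KO replicate 4 was left out.

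**Figure D5:**
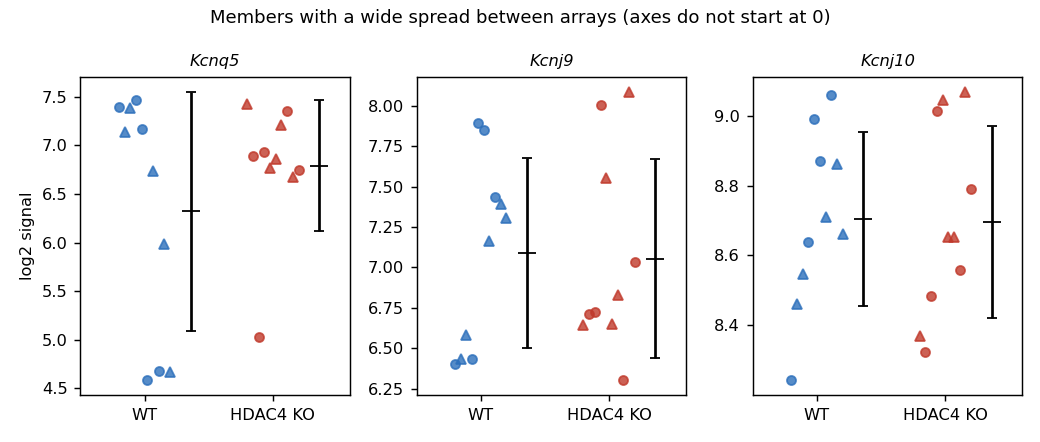
Log2 signal of members with a wide spread in each WT and HDAC4 KO array (circles, labelled male; triangles, labelled female; bars, mean ± SD over 10 arrays; axes do not start at 0). The genotypes overlap over nearly their whole range, and for Kcnq5 3 WT arrays and 1 HDAC4 KO array lie near 5.03 or lower.

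Genes near a knocked-out locus can keep DNA of the strain in which the allele was made, so members on chromosome 1, where Hdac4 lies, are given by their order in the RefSeq annotation (GRCm38.p6). Distances count only the genes with a single-symbol probe set on the array. There were 7 such genes with 13 probe sets, of which 0 were called. The nearest was Kcne4, a MinK-related subunit, 97 genes from Hdac4, with a difference of -0.09 (adjusted p = 0.424). Kcnt2 lay 230, Kcnq5 397, Kcnj9 428, Kcnj10 429, Kcnk2 541 and Kcnh1 568 genes away, with the values given above. The 5 called genes lie on other chromosomes.

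Partners of these channels outside the Kcn names were read in the same fit. Of 19 genes for auxiliary subunits, clustering proteins and nucleotide-binding subunits 18 were measured. At the brightest probe set 1 rose and 0 fell (7 higher and 1 lower at an unadjusted p under 0.05), and 14 were positive with a median of 0.06. Over all 18193 genes 1.45% were called higher and 0.517% lower (12.8% and 6.19% unadjusted), and 57.2% were positive. The one that rose was Adam22, a receptor for the secreted protein Lgi1 in the Kv1 and synaptic scaffold. It measured 10.20, 10.29 and 10.37 in WT and 10.33, 10.42 and 10.54 in HDAC4 KO brains, and 9 HDAC4 KO arrays were above the WT range. The rise was 0.15 (SE 0.03, 1.11-fold, adjusted p = 0.0198), and the second Adam22 probe set gave -0.10 (adjusted p = 0.401). The call was lost with the RNA integrity measure as covariate and without the 3 arrays that went against their labelled sex. Lgi1 gave 0.19 (adjusted p = 0.0711), Adam23 0.14 (adjusted p = 0.0915), and the scaffold genes Dlg1 and Dlg4 (PSD-95) 0.14 (adjusted p = 0.0791) and 0.13 (adjusted p = 0.0779). The other Adam23 probe sets gave -0.01 (adjusted p = 0.916) and -0.11 (adjusted p = 0.417), and Adam23 lies on chromosome 1, 203 genes from Hdac4. The lower one was Abcc9, a sulfonylurea receptor subunit of ATP-sensitive channels, with -0.18 (adjusted p = 0.168) at its brightest probe set and -0.39 (adjusted p = 0.122) at another. Of the Kv4 auxiliary subunits Dpp6 gave 0.02 (adjusted p = 0.768) and Dpp10 -0.05 (adjusted p = 0.592). Over the 53 probe sets of the partner genes 2 were called higher and 0 lower, beside 1.05% and 1.01% of all probe sets. The called one besides that of Adam22 was a probe set of Nedd4l (0.19, adjusted p = 0.0196), a ubiquitin ligase that acts on Kv7 channels. The brightest probe set of Nedd4l gave 0.08 (adjusted p = 0.42), and 2 others gave -0.34 (SE 0.11) and -0.25 (SE 0.08), neither of them called, so its probe sets did not move together.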

How the data were processed

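The authors labelled total RNA of 20 whole brains with the GeneChip 3′ IVT Express kit, hybridised Affymetrix mouse genome arrays, excluded chips of poor quality with RACE, and deposited log2 signals, 1 per probe set and array. Their medians were nearly equal between arrays (6.26 to 6.32). The sources used here do not name a method of normalisation. Precision is limited by the number of arrays.

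Of 45101 probe sets, 64 controls were left out. The genotype comparison was a linear model without covariates in limma 3.58.1 under R 4.3.3 (lmFit, then eBayes), with Benjamini-Hochberg adjustment over 45037 probe sets and calls at an adjusted p under 0.05. A 4-group fit gave the contrasts by labelled sex. The methods' t-test was an alternative, among others listed in the closing section, and 2 were added after seeing the data. A probe set is dim if it exceeds its array's median in fewer than 10 arrays. Probe sets were named from the platform annotation table, and gene order from RefSeq (GRCm38.p6), which placed 18032 genes including all 80 members.

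Genes named were all called probe sets with the others of their gene, the gene with the smallest p at its brightest probe set in each subfamily, members on chromosome 1, and a list of common channels, some of which are not reported here; other probe sets were picked with their values in view. The members and lists were chosen with earlier results of these data known. No 2 arrays were identical. The labels give replicate numbers but no separate source for them, and p-values measure the spread between these arrays. The comparisons were tested on simulated data.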

Additional observations from a re-analysis of the deposited data

Results flagged for a closer look

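In 76 groups of 10 arrays (38 named probe sets in 2 genotypes), 4 had an array whose gap to its neighbour was large for the range of its group by Dixon's 95% criterion, and chance alone gives about 1 in 20. For Kcnc2, HDAC4 KO replicate 6 was low at 9.01, with the next array at 9.14. For Kcnip1, the same array was low at 9.35, next to 9.49. For Kcnk2, WT replicate 1 was high at 10.14. For Kcne3, HDAC4 KO replicate 1 was high at 3.13, next to 2.93, both dim. The Kcnc2 call was kept without replicate 6.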

How the results depend on the processing

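Of 38 named probe sets 31 kept their sign under every alternative run, among them the 5 called. The 5 higher calls became 2 with Welch's test, 1 (Kcnip2) with the 3′ minus 5′ signal as covariate, 3 with the brightest probe sets only, 2 (Kcnip2 and Kcnc2) without WT replicate 8 and HDAC4 KO replicate 10, 2 without the 3 arrays against their sex label, and 2 to 8 with 1 array left out. They were 7 with dim probe sets left out, 7 with array weights and 6 with the trended, robust fit. They were 2 without WT replicate 2, 3, 4, 5 or 7 or HDAC4 KO replicate 5, 8 or 10, and 8 without HDAC4 KO replicate 2. Higher calls over all 45037 probe sets also changed, from 474 as reported. They were 439 with Welch's test, 23 with the covariate, 996 of 22603 with dim probe sets left out and 385 of 18193 at the brightest ones. Array weights gave 789, the trended fit 765, and omission of those 2 and 3 arrays 157 and 174. With 1 array left out they were 184 (without WT replicate 2) to 991 (without HDAC4 KO replicate 2). Of the members, the methods' t-test called 5 higher and 0 lower, with Kcnd3 in place of Kcnq3. Lower calls of members went from 0 to 1 (Kcns2) with median centring, and to 1 with a trended, robust fit, and were 0 to 1 with 1 array left out. Over all probe sets lower calls were 453 as reported, 504 with median centring and 620 with the trended, robust fit. Member genes higher at the brightest probe set were 1 with the covariate, 5 with dim probe sets left out, and 2 to 4 with 1 array left out, and 0 were lower. Partner genes higher were 0 with the covariate, 6 without dim probe sets, 3 with the trended fit, 2 with array weights, 0 without those 3 arrays, and 1 to 4 with 1 array left out. The cause of these changes was not tested.

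Arrays with the same replicate number showed little shared deviation, with correlations from -0.149 to 0.162 (1 of 10 pairs above 0.1). Whether the numbers mark a shared litter or batch is not given by the labels and was not tested. With the number as a replicate block 5 probe sets were higher and 0 lower, with Kcnip4 and Kcna1 in place of Kcnd1 and Kcnt1.

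Sign changes were all in uncalled probe sets with log2 fold changes of at most 0.0353 in size. Kcnd1 at its brightest probe set was -0.00221 with the covariate, -0.00284 after quantile normalisation, -0.0119 and -0.00355 without the 2 and 3 arrays, and -0.0225 to 0.0267 with 1 left out. Kcnj10 was 0.0213 with array weights, 0.0207 and 0.0367 without the 2 and 3 arrays, and -0.0596 to 0.0332 with 1 left out. Kcnj9 was 0.0124, 0.0055 and 0.107 in the same 3 settings, and -0.15 to 0.0544. Kcnip2 at its dimmest probe set was -0.0151 and -0.0107 without the 2 and 3 arrays, and -0.0139 to 0.0387. With 1 array left out Kcna2 spanned -0.033 to 0.0144, Kcnip1 -0.0221 to 0.00739 and Kcnt2 -0.00733 to 0.0616.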

Other observations

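The signals of Kcnj9, at its brightest probe set, and Kcnj10, neighbours on chromosome 1 among the genes on the array, went up and down together across brains. The pair was noticed after their values were seen. Over the 20 arrays Pearson's r was 0.858 and Spearman's rho 0.869 (permutation p = 2e-05 for each, two-sided, 100000 resamples, 8e-05 adjusted over the 4 probe sets of Kcnj9). These p-values, and those within the genotypes, do not allow for the choice of this pair among all members, so they are no independent support. Without the 2 arrays farthest from the median of Kcnj9 r was 0.818. Within the genotypes r was 0.848 (p = 0.00175 by permutation) over the 10 WT arrays and 0.867 (p = 0.00144 by permutation) over the 10 HDAC4 KO arrays, with rho 0.915 and 0.794. The other Kcnj9 probe sets did not all follow Kcnj10. The one that is above the array median on all 20 arrays gave r = -0.322 (permutation p = 0.167, adjusted 0.223) and rho = -0.416. The 2 dim ones gave r = 0.562 (permutation p = 0.00802, adjusted 0.016) and r = 0.0785 (permutation p = 0.75, adjusted 0.75). The relation was thus seen at the probe set chosen for it and, more weakly, at a dim one, and did not hold at the others.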
